A study of Mus musculus with 9 samples.

Results

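Differentiative progenitors (DP) were set against the other 2 cell types of the neurogenic lineage, proliferative progenitors (PP) and newborn neurons (N), to ask which circRNAs mark the DP state itself. A circRNA entered a contrast of its DP level against the average of the PP and N means on the log2 scale, which used all 9 libraries of the series, 3 of them from DP, and 5254 of its 5281 circRNAs. The other 27 entries, CiCo_mm9_circ_004999 and those of a single region of chromosome 17, held most reads and were left out before scaling, which kept between 1.78% and 5.35% of the counts of a library. All cells came from the lateral cortex of C57BL/6 mouse embryos at E14.5 that carried both a Btg2-RFP and a Tubb3-GFP reporter. The cortex was freed of meninges and ganglionic eminences, and the cells were sorted as RFP-/GFP- (PP), RFP+/GFP- (DP) or GFP+ whether or not RFP was present (N), with 3 libraries each. RNase R, an exonuclease that degrades linear RNA, was applied to total RNA before sequencing. The reporters limit each group as a model, since a sorted population holds every cell that meets its colour gate and fluorescent protein can outlast the activity of its promoter.

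Neural stem cells of the embryonic cortex first expand by symmetric divisions and then generate neurons, in large part through basal progenitors that divide in the subventricular zone. Cells that switch from expansion to neurogenic division turn on Btg2, an antiproliferative gene, and the DP population is thought to hold such neurogenic progenitors before they exit the cell cycle. CircRNAs arise when the end of an exon is joined backward to the start of the same or an earlier exon, and the closed ring lacks the free ends on which exonucleases act. The tabulated circRNAs (CiCo) carry no transcript of Btg2, Tubb3, Eomes, Neurog2, Insm1, Dll1, Hes6 or Gadd45g, so that 0 of these 8 reporter or basal progenitor genes could be used to check the sort. Of the 24 genes of a basal progenitor list, 6 had circRNAs (Mfng, Elavl4, Tcf4, Tcf12, Rcor1 and Unc5d), of which Mfng and Elavl4 passed the test as higher in DP and the others did not.

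Only 6 circRNAs from 5 genes differed between DP and each of the other cell types in the same direction, and their back-splice junctions are shown because they identify these 6 rings. Each line gives the last 30 bases of the ring in lower case followed by its first 30 bases in capitals, 5′ to 3′ on the strand of the gene, read from mm9 (NCBIM37). All 12 ends coincide with exon ends of protein-coding genes in GENCODE vM1 and lie in sequence annotated as coding. Of all tested circRNAs, 98.4% had both ends at annotated exon ends.
CiCo_mm9_circ_000203 of Kif26b, chr1:180608957-180646100, plus strand: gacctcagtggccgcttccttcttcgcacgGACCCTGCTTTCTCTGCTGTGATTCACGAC
CiCo_mm9_circ_000202 of Kif26b, chr1:180608957-180609490, plus strand: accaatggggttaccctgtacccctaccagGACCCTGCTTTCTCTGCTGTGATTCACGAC
CiCo_mm9_circ_002131 of Mfng, chr15:78594745-78597350, minus strand: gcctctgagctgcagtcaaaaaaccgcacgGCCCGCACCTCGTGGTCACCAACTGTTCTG
CiCo_mm9_circ_004254 of Elavl4, chr4:109884031-109924126, minus strand: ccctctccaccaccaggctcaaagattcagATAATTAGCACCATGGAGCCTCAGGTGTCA
CiCo_mm9_circ_006088 of Adamts18, chr8:116260581-116278559, minus strand: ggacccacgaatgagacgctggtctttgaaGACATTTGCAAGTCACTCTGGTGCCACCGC
CiCo_mm9_circ_004105 of Schip1, chr3:68298496-68299179, plus strand: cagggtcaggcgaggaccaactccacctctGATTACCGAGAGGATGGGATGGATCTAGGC
Both Kif26b rings begin with the same exon, as their identical capitals show. The shorter ring is that exon alone (534 bases of genome), and the longer one spans 37144 bases to a second exon.

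The Mfng ring is short enough to be given whole. Its 2 annotated exons add up to 257 bases, with the first exon of the ring (103 bases) in capitals and the next (154 bases) in lower case, both wholly coding in GENCODE vM1.
CiCo_mm9_circ_002131 of Mfng, chr15:78594745-78597350, minus strand, introns removed: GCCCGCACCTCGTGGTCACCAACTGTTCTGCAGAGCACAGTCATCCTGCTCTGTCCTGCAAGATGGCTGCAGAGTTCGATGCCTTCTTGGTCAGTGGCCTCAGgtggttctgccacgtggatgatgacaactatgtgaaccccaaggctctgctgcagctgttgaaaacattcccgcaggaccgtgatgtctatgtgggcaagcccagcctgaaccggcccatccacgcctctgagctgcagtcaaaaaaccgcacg

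Levels are given as CPM, the counts of a library scaled to its total over the tested circRNAs after TMM normalization. A count is any read on the features counted for a circRNA and is not limited to its back-splice junction. For some entries these features included introns, so their levels are not those of exons alone. CiCo_mm9_circ_002130 of Mfng, for example, has 3 annotated exons and a counted length of 3596 bases for a span of 3595. Since circRNAs of a gene can share exons, they may share reads, and linear RNA that survived RNase R cannot be told apart from the ring. A higher level can also mean more cells of a type or more RNA per cell, which cannot be told apart in sorted bulk samples. The retained circRNAs held between 83572 and 287983 counts per library, and 3 counts corresponded to 9.92 to 10.9 CPM in DP and to as much as 40.6 CPM in PP replicate 3. The biological coefficient of variation was 0.122 in DP, 0.425 in PP and 0.347 in N. PP replicate 3 and N replicate 1 were shallow and stood apart from their replicates (across circRNAs, the Spearman correlation of PP replicate 3 with its replicates was 0.703 and 0.713, beside 0.922 for the remaining PP pair, and that of N replicate 1 was 0.794 and 0.831, beside 0.947 for the remaining N pair and 0.940 to 0.948 within DP), so that the higher variation of PP and N includes these libraries. The main counts are therefore also given with both left out, and the part of depth in the differences was not tested.

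In the contrast, 188 of 4389 tested circRNAs had an adjusted p under 0.05 (4.28%, edgeR's quasi-likelihood test with Benjamini-Hochberg adjustment). Of these, 166 were higher (3.78%), from 98 genes, and 22 were lower (0.501%), from 20 genes, whereas the median contrast over all tested circRNAs was 0.01 on the log2 scale. Top2a, Mki67, Kif26b, Mfng and Chd7 gave circRNAs that were higher, and Schip1, Ncam1 and Igsf3 gave circRNAs that were lower. Since the reference is an average of logs, a circRNA can pass while its DP level lies between PP and N. The mean DP level was above both other means for 82 of the 166 higher circRNAs and between them for 84, and it was below both for 19 of the 22 lower circRNAs and between them for 3. Over all tested circRNAs it was above both for 21.1%, between for 56.6% and below both for 22.4%. The pairwise tests of the same model called 89 circRNAs between DP and PP (2.03%), 876 between DP and N (20.0%) and 1285 between N and PP (29.3%), and 153 of the 166 higher circRNAs were among the last. All 3 DP libraries lay above all other 6 for 71 tested circRNAs (1.62%) and below them for 38 (0.866%), and this held for 29 of the higher and 5 of the lower calls.

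**Figure D1:**
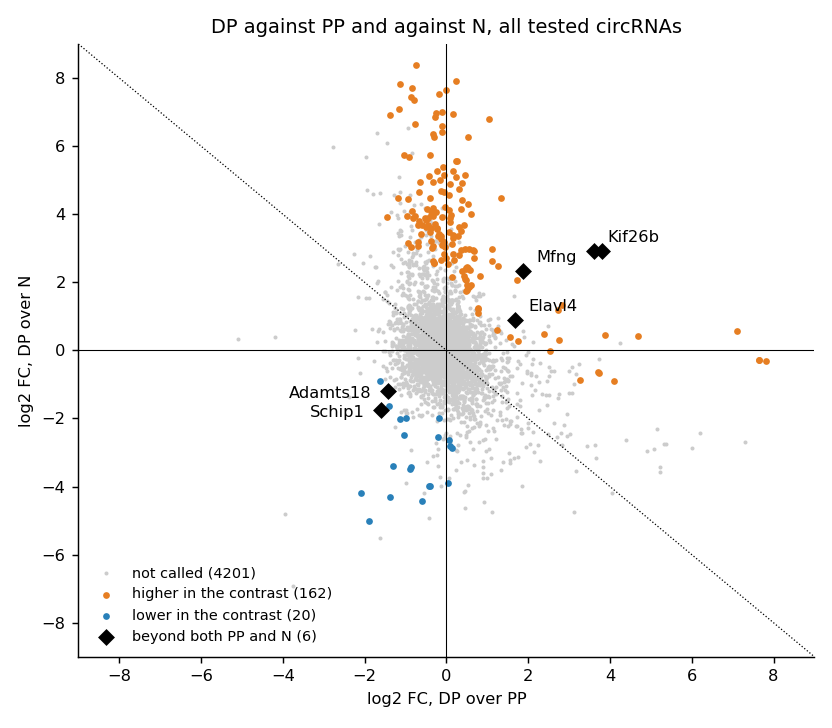
Log2 FC of DP over PP (horizontal axis) and of DP over N (vertical axis) for each of the 4389 tested circRNAs, as points, with the dotted line where the contrast is 0. Most of the orange points (higher in the contrast) lie along the upper vertical axis, where DP exceeds N and is close to PP, and the black diamonds mark the 6 circRNAs that differed from both.

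The number of calls moved with the libraries. Without PP replicate 3 and N replicate 1 it was 679 of 4706 tested (14.4%), 506 higher and 173 lower, and all 188 circRNAs stayed called. Leaving out DP replicate 1, 2 or 3 gave 78, 55 and 62 calls, leaving out N replicate 2 or 3 gave 95 and 81, and leaving out PP replicate 3 gave 282. When the 6 PP and N libraries were fitted as a single group, so that the distance between PP and N counted as spread, 2 circRNAs were called, the 2 of Kif26b. In this fit 158 of the 166 and all 22 of the 22 kept their direction. That follows largely from their selection, since the same libraries entered both fits.

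**Figure D2:**
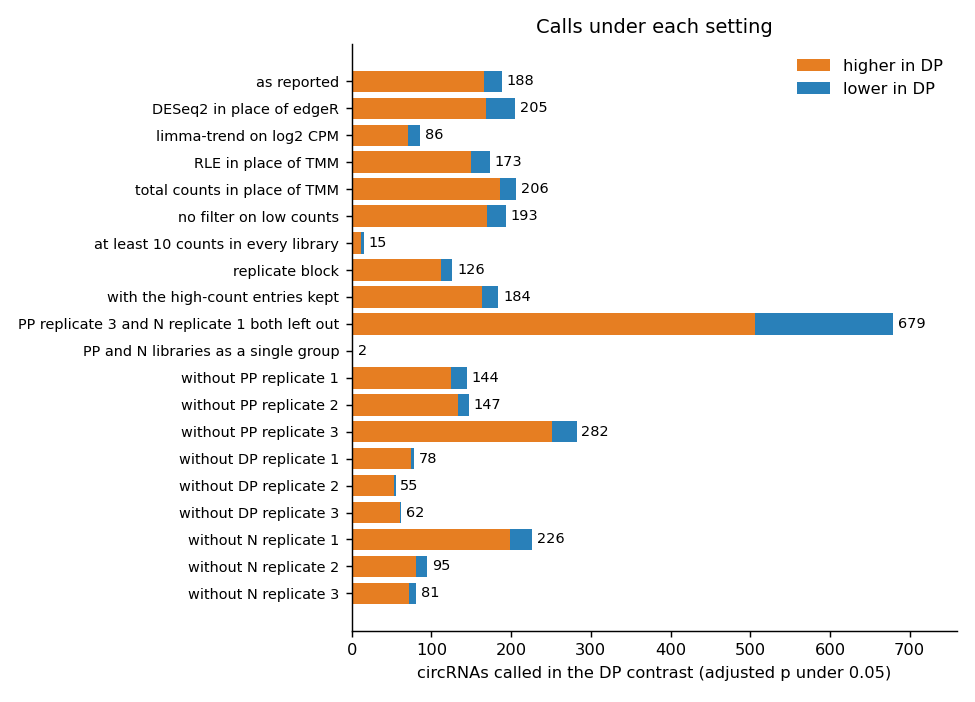
Number of circRNAs called in the DP contrast (horizontal axis, circRNAs with an adjusted p under 0.05) under each setting, split into higher (orange) and lower (blue) in DP. The count ranges from 2, with PP and N as a single group, to 679, without PP replicate 3 and N replicate 1, and higher calls outnumber lower ones in each bar.

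Of the 6 circRNAs beyond both (0.137% of those tested), 4 were higher and 2 lower, and their genes were Kif26b, Mfng, Elavl4, Adamts18 and Schip1. Kif26b encodes an atypical kinesin-like protein that is known from cell adhesion in the developing kidney. CiCo_mm9_circ_000203 of Kif26b had 15.1, 18.8 and 13.5 CPM in PP, 218, 180 and 322 CPM in DP and 37.9, 23.6 and 38.0 CPM in N. The shorter CiCo_mm9_circ_000202 had the same counts in PP as the longer ring, 7 in all, 185, 176 and 271 CPM in DP and 25.3, 23.6 and 33.2 CPM in N. Every DP library thus lay several-fold above every other library for both rings, which share an exon and may share reads. The mean of CiCo_mm9_circ_000203 in DP was 15.2-fold that in PP and 7.24-fold that in N, with a contrast of 3.36 (standard error 0.32, adjusted p = 0.000128 in edgeR's quasi-likelihood test), and that of CiCo_mm9_circ_000202 was 13.3-fold and 7.71-fold (contrast 3.27, standard error 0.31, adjusted p = 0.000128). Both stayed beyond PP and N with each of the 9 libraries left out in turn, and the number beyond both was 2 without PP replicate 1, PP replicate 2, N replicate 3 or any DP library, and 16 without PP replicate 3.

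Mfng encodes Manic fringe, a glycosyltransferase that adds sugar to Notch receptors and shifts their response to ligands. CiCo_mm9_circ_002131 had 60.5, 70.6 and 108 CPM in PP, 298, 248 and 300.4 CPM in DP and 88.5, 26.9 and 71.2 CPM in N. Its lowest DP library was above the highest of the others, and the contrast was 2.11 (standard error 0.32, adjusted p = 0.00252 in edgeR's quasi-likelihood test). The mean in DP was 3.54-fold that in PP (adjusted p = 0.0259) and 4.54-fold that in N (adjusted p = 0.000784). A second circRNA of the gene, CiCo_mm9_circ_002130 (chr15:78587727-78591321), whose counted length of 3596 bases covers its whole span, had 249.5, 240.2 and 853 CPM in PP, 807, 947 and 1032 CPM in DP and 291, 30.3 and 180.4 CPM in N. It was higher in the contrast (1.87, standard error 0.49, adjusted p = 0.0468) but not against PP alone (adjusted p = 0.509), where PP replicate 3 overlapped DP.

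Elavl4 encodes an RNA-binding protein of the Hu family that is found in early postmitotic neurons. CiCo_mm9_circ_004254 had 189, 169.5 and 149 CPM in PP, 559, 569 and 525 CPM in DP and 202, 327 and 332 CPM in N, so that DP lay above both and N above PP. The contrast was 1.30 (standard error 0.24, adjusted p = 0.00765 in edgeR's quasi-likelihood test), with 3.26-fold the mean of PP (adjusted p = 0.00771) and 1.92-fold the mean of N (adjusted p = 0.0338).

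Schip1 encodes a protein that binds schwannomin, the product of the Nf2 gene, and Adamts18 a secreted metalloproteinase. CiCo_mm9_circ_004105 of Schip1, a ring of 1 exon, had 181, 146 and 230.2 CPM in PP, 69.5, 50.4 and 57.9 CPM in DP and 139, 232 and 214 CPM in N. CiCo_mm9_circ_006088 of Adamts18 had 113, 151 and 122 CPM in PP, 46.3, 61.2 and 36.2 CPM in DP and 114, 94.3 and 123 CPM in N. In both, each DP library was below all 6 others, while PP and N overlapped. The contrast was -1.67 for Schip1 (standard error 0.30, adjusted p = 0.00747) and -1.31 for Adamts18 (standard error 0.30, adjusted p = 0.0252, edgeR's quasi-likelihood test). The mean of PP was 3.14-fold that of DP for Schip1 and 2.69-fold for Adamts18, and the mean of N was 3.29-fold and 2.31-fold. A shorter circRNA of Adamts18 that shares exons with it, CiCo_mm9_circ_006087, lay just outside the threshold (contrast -1.32, adjusted p = 0.0504).

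These 4 circRNAs of Mfng, Elavl4, Schip1 and Adamts18 were close to the threshold for being beyond both. The larger of the 2 adjusted p-values of the steps ranged over the 9 analyses that left out a library from 0.00562 to 0.144 for Mfng, from 0.0109 to 0.118 for Elavl4, from 0.0128 to 0.180 for Schip1 and from 0.0268 to 0.265 for Adamts18. Mfng and Schip1 stayed beyond both in 3 of these 9 and Elavl4 and Adamts18 in 2, and leaving out PP replicate 1 or 2, N replicate 3 or any DP library ended each of the 4, as did N replicate 2 for Elavl4 and Adamts18. Without PP replicate 3 and N replicate 1 together, all 6 were beyond both. The contrast itself stayed called in 9 of the 9 for Mfng, in 8 for Elavl4 (not without DP replicate 2, adjusted p = 0.0600), in 7 for Schip1 (not without DP replicate 2 or 3, adjusted p of up to 0.0653) and in 4 for Adamts18 (not without PP replicate 2, N replicate 3 or any DP library, adjusted p of up to 0.156). Adamts18 also missed the threshold with limma-trend and with the replicate block (adjusted p = 0.0642). Per kilobase of counted length, the mean DP level of Mfng (1089 RPKM) was above that of 97.2% of tested circRNAs, those of the Kif26b rings (342 and 394 RPKM) and Elavl4 (249.9 RPKM) were above the median of 217 RPKM, and those of Schip1 (86.5 RPKM) and Adamts18 (51.8 RPKM) were above only 11.8% and 3.96%.

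**Figure D3:**
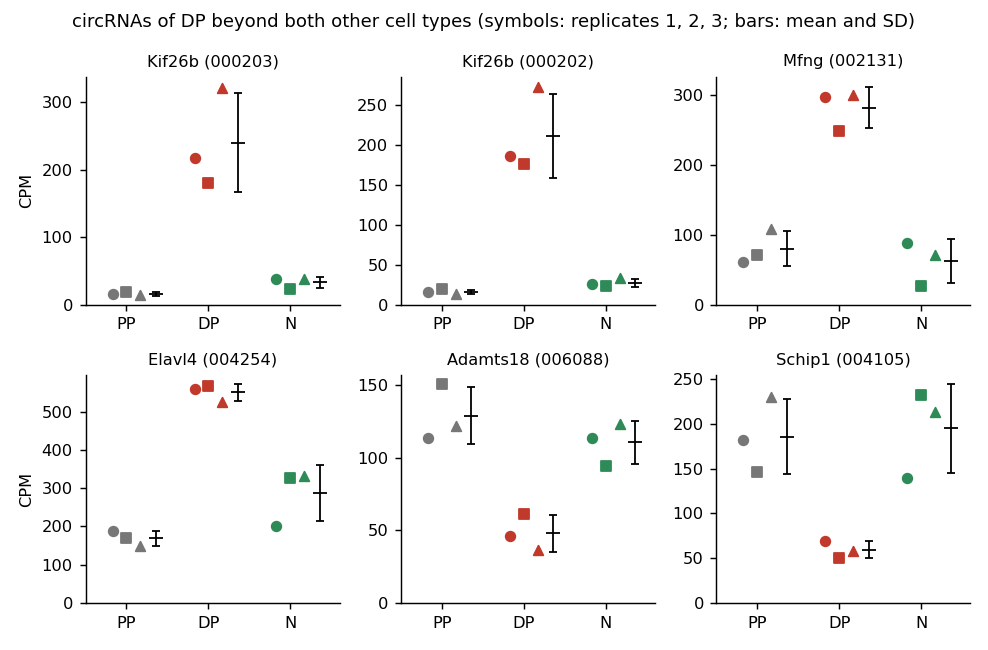
Level of the 6 circRNAs beyond both (vertical axes, CPM from 0) in each PP, DP and N library, with replicates 1, 2 and 3 as circle, square and triangle and the mean with its SD in black. For Kif26b, Mfng and Elavl4 the 3 DP libraries sit above all others, and for Adamts18 and Schip1 they sit below all others.

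Other higher circRNAs whose DP libraries lay above all others were closer to PP in some cases and to N in others. CiCo_mm9_circ_004320 of Eif2c1 was closer to N, with means of 203 CPM in PP, 470 in DP and 311 in N. Those named by rule for non-overlapping DP libraries were closer to PP. They were D8Ertd82e, Rhbdl3 (rhomboid family), Magi1 (a scaffold of cell junctions), Chd7 (a chromatin remodeller), Spsb4 (an adaptor of ubiquitin ligases), Pard3 (apical polarity), Anp32e (a chaperone of histone H2A.Z) and Rangap1 (activator of the GTPase Ran). In each the mean was highest in DP, which the rule required, and lowest in N. The call against N passed while the call against PP did not (adjusted p between 0.256 and 0.643 in edgeR's quasi-likelihood test). Without PP replicate 3 and N replicate 1, Rhbdl3, Anp32e and Rangap1 also passed against PP (adjusted p = 0.00568, 0.0022 and 0.00353). CiCo_mm9_circ_004201 of Anp32e had 960, 782 and 894 CPM in PP, 1687, 1368 and 1459 CPM in DP and 784, 488 and 669 CPM in N (contrast 1.003, standard error 0.24, adjusted p = 0.0317). CiCo_mm9_circ_006218 of D8Ertd82e had 741, 782 and 393 CPM in PP, 939, 1152 and 1021 CPM in DP and 177, 97.7 and 147 CPM in N (contrast 1.81, standard error 0.28, adjusted p = 0.00292). CiCo_mm9_circ_001110 of Rhbdl3 averaged 249 CPM ± 95.7 (SD, n = 3) in PP, 377 ± 37.7 in DP and 46.9 ± 7.81 in N. For CiCo_mm9_circ_005587 of Magi1 the means of PP, DP and N were 156 ± 47.9, 283 ± 57.9 and 58.2 ± 19.1. The contrasts of the other 4 lay between 0.93 (Rangap1) and 1.27 (Chd7). With a library left out in turn, D8Ertd82e and Rhbdl3 stayed called in 9 of 9 analyses, Magi1 in 8 (not without DP replicate 2, adjusted p = 0.0698) and Chd7 in 5, Pard3 in 4, Spsb4 in 3, Anp32e and Rangap1 in 2. The last 5 were lost without DP replicate 1, 2 or 3 and without N replicate 2, all but Chd7 also without N replicate 3, and Spsb4, Anp32e and Rangap1 without PP replicate 1, the last pair also without PP replicate 2, with adjusted p-values of up to 0.249.

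Among the lower circRNAs, Adamts3 (a procollagen proteinase), Slc8a3 (a sodium and calcium exchanger) and Zfp704 (a zinc finger gene) also had all DP libraries below the others. CiCo_mm9_circ_004187 of Zfp704 had 106, 70.6 and 67.7 CPM in PP, 33.1, 25.2 and 32.6 CPM in DP and 114, 94.3 and 85.4 CPM in N (contrast -1.52, standard error 0.33, adjusted p = 0.0190). It was beyond N (adjusted p = 0.00544) and missed the threshold against PP (adjusted p = 0.0842), which it passed without PP replicate 3 and N replicate 1 (adjusted p = 0.0136). CiCo_mm9_circ_005229 of Adamts3 averaged 60.3 CPM ± 19.8 (SD, n = 3) in PP, 29.2 ± 7.32 in DP and 161 ± 41.0 in N. CiCo_mm9_circ_001468 of Slc8a3 had 6 counts in the 3 PP libraries, 3 in DP and 83 in N, so that its order between PP and DP rests on very few reads. Adamts3, Slc8a3 and Zfp704 stayed called in 5, 7 and 5 of the 9 analyses without a library (adjusted p of up to 0.0939, 0.0787 and 0.123), and each was lost without DP replicate 2 or 3, Adamts3 also without DP replicate 1 or PP replicate 2, Zfp704 also without DP replicate 1 or PP replicate 1.

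**Figure D4:**
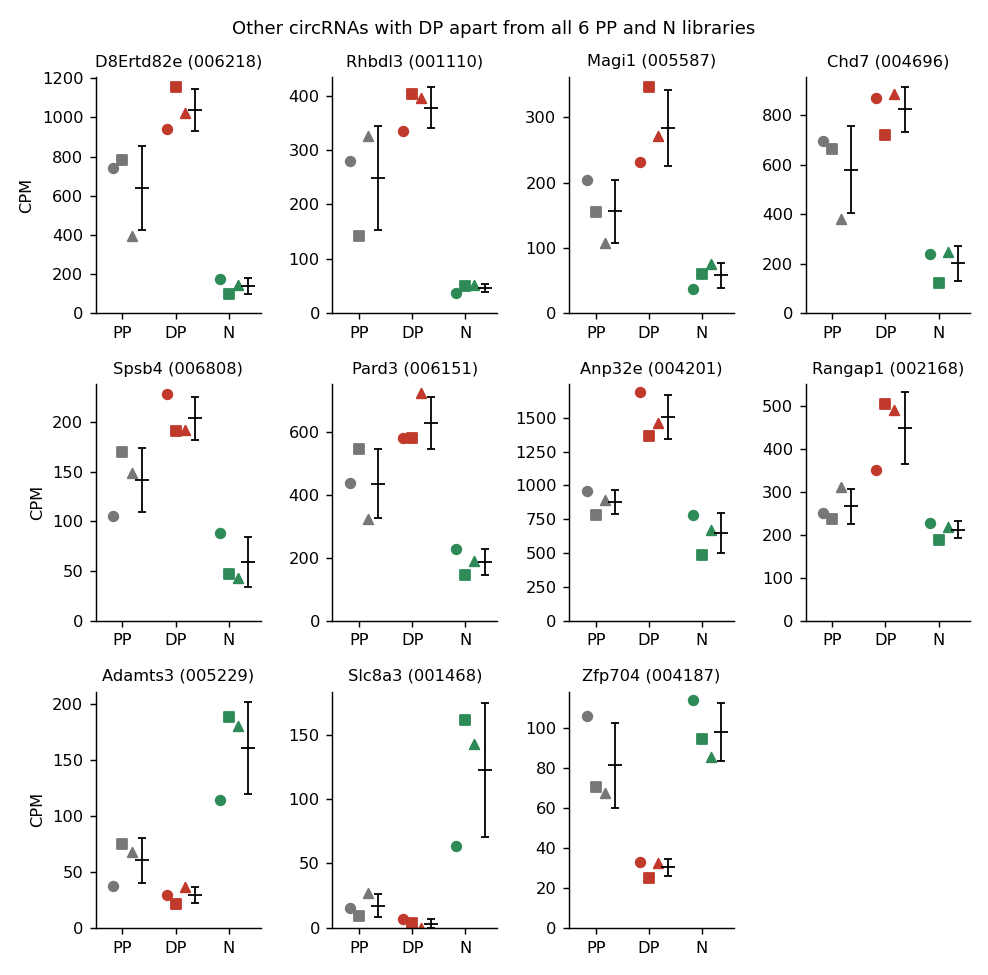
Level (vertical axes, CPM from 0) of the other circRNAs named by rule for 3 DP libraries that lie above (first 8 panels) or below (last 3 panels) all PP and N libraries, drawn as in the plot of the circRNAs beyond both. In the first 8 panels PP lies between DP and N, and the gap from DP to N is wider than that to PP.

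The larger part of the higher calls were circRNAs that PP and DP shared and N had lost. Of the 166, N was below PP for 145, DP against N was called and DP against PP was not for 143, and the median ratio of the mean DP level to that of PP was 1.06. In 48 of them N held 3 counts or fewer over its 3 libraries, and in 18 it held none, so that their fitted contrasts depend on how zero counts are treated. The share of all tested circRNAs with so few counts in N was not computed. Of 52 tested circRNAs of the DNA replication list, 15 were higher and 0 lower (median contrast 1.03), and of 97 of the mitosis list, 33 were higher and 2 lower (median contrast 0.80), beside 3.78% higher over all tested circRNAs. DP was above both other means for 14 of the 52 and 31 of the 97, none of either list was called against PP in the pairwise test. Against N, 39 and 51 were higher in DP and 0 and 2 lower, beside 10.1% higher and 9.82% lower over all tested circRNAs. With PP replicate 3 and N replicate 1 left out, 27 of the 52 and 54 of the 97 were called higher, and 0 and 2 lower, beside 10.8% higher over all tested circRNAs.

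CiCo_mm9_circ_001215 of Top2a, the topoisomerase that untangles replicated chromosomes, had 461, 612 and 352 CPM in PP, 701, 691 and 601 CPM in DP and 37.9, 10.1 and 19.0 CPM in N (contrast 2.81, standard error 0.30, adjusted p = 0.000258 in edgeR's quasi-likelihood test). CiCo_mm9_circ_004031 of Ect2, which acts in cytokinesis, had 529, 589 and 501 CPM in PP, 447, 461 and 391 CPM in DP and 12.6, 16.8 and 9.49 CPM in N (contrast 2.31, standard error 0.26, adjusted p = 0.00037). The DP libraries thus lay far above N in both and overlapped PP for Top2a, and neither step from PP was called (adjusted p = 0.639 and 0.716). CiCo_mm9_circ_005787 of Mki67, the gene of the proliferation marker Ki-67, averaged 477 CPM ± 148 (SD, n = 3) in PP, 455 ± 65.6 in DP and 11.2 ± 3.95 in N. The respective means of CiCo_mm9_circ_005327 of Cdca3, a cell cycle gene, were 413 ± 70.2, 329 ± 36.5 and 2.70 ± 2.44 CPM. CiCo_mm9_circ_003631 of Etl4 averaged 327 ± 148 CPM in PP and 201 ± 55.3 in DP. Prc1 bundles microtubules of the spindle midzone, and its CiCo_mm9_circ_006002 averaged 118 ± 20.5 and 122 ± 7.68 CPM. Neither had a count in N, and against a floor of 3 counts over the 3 N libraries DP was at least 39.3-fold higher for Etl4 and at least 23.8-fold for Prc1. CiCo_mm9_circ_005655 of Rrm1, a subunit of ribonucleotide reductase, had a mean DP level of 330.1 CPM, beside 304 CPM in PP and 23.3 CPM in N. The mean DP levels of CiCo_mm9_circ_004280 of Kif2c, a microtubule depolymerase, and CiCo_mm9_circ_003492 of Tpx2, a spindle assembly factor, were 176 and 153 CPM, and N held 1 and 2 counts of them. The contrasts of Etl4, Cdca3 and Mki67 stayed called with each library left out in turn.

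A smaller arm of the higher calls set DP apart from PP and not from N. DP was called against PP for 22 of the 166, from 15 genes, and for 16 of these not against N. In 4 of them, from Clvs1 and Slc17a6, PP held no count, so that their fitted contrasts also depend on how zero counts are treated. Kif21b encodes a kinesin of neurons, and its CiCo_mm9_circ_000078 had 52.9, 61.2 and 81.2 CPM in PP, 827, 688 and 992 CPM in DP and 1668, 970 and 1239 CPM in N. DP thus lay an order of magnitude above PP and overlapped N, with a contrast of 1.55 (standard error 0.27, adjusted p = 0.00669 in edgeR's quasi-likelihood test). CiCo_mm9_circ_000079 of the same gene behaved alike (55.7 CPM ± 24.3, 875 ± 189 and 1641 ± 783, adjusted p = 0.0190). Elavl2, which encodes another Hu protein, and Eif2c1, which encodes Argonaute 1 of the miRNA pathway, had DP means above both PP and N without passing against N. CiCo_mm9_circ_004713 of Elavl2 averaged 77.0 CPM ± 8.18 (SD, n = 3) in PP, 264 ± 35.5 in DP and 211 ± 42.1 in N (adjusted p = 0.0317). The means of CiCo_mm9_circ_004320 of Eif2c1 were 203 ± 64.1, 470.1 ± 27.0 and 311 ± 37.2 (adjusted p = 0.0482), and without PP replicate 3 and N replicate 1 it passed against N as well (adjusted p = 0.0322). For 2 higher circRNAs both steps were called with opposite signs, so that DP lay between PP and N. CiCo_mm9_circ_004213 of the receptor Notch2 averaged 868 CPM ± 72.5 in PP, 317 ± 2.17 in DP and 21.0 ± 5.94 in N. For CiCo_mm9_circ_003073 of the netrin receptor Dcc the order was the reverse, with 36.2 ± 5.35, 348 ± 83.4 and 634 ± 57.2.

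The 3 lower circRNAs named for a DP level between PP and N were those of the adhesion genes Ncam1, Igsf3 and Ctnna2, and in each N lay far above DP while the step from PP to DP was not called (adjusted p between 0.948 and 0.975). CiCo_mm9_circ_006626 of Ncam1 averaged 52.0 CPM ± 5.87 (SD, n = 3) in PP, 57.3 ± 3.87 in DP and 436 ± 149.6 in N. The corresponding means were 116 ± 23.0, 123 ± 12.01 and 878 ± 219.5 for CiCo_mm9_circ_003928 of Igsf3. They were 60.6 ± 7.40, 63.0 ± 14.9 and 383 ± 143 for CiCo_mm9_circ_005531 of Ctnna2. Their contrasts were -1.38, -1.36 and -1.28 (adjusted p = 0.0268, 0.0146 and 0.0459 in edgeR's quasi-likelihood test). Each was lost without DP replicate 1, 2 or 3, Ncam1 also without PP replicate 2 and Ctnna2 without PP replicate 1 or 2 and N replicate 2 or 3 (adjusted p of up to 0.273).

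The basal progenitor list, which stands for the state that the RFP+ gate is meant to catch, had circRNAs from 6 of its 24 genes (Mfng, Elavl4, Tcf4, Tcf12, Rcor1 and Unc5d). All 13 were tested, 3 were higher (2 of Mfng and 1 of Elavl4) and 0 lower, the median contrast was 0.36, and 2 were beyond both, beside 3.78% higher and 0.137% beyond both over all tested circRNAs. The share called was 23.1%, and that of the radial glia list was the same. Like the other lists, this list was chosen with earlier results of these data known. Its shares are therefore a description and do not test which state the RFP+ gate caught. Unc5d, a netrin receptor of the subventricular zone, had 2 circRNAs whose contrasts of 1.29 and 1.74 missed the threshold (adjusted p = 0.0818 and 0.0563 in edgeR's quasi-likelihood test), and whose means of 122 and 72.7 CPM in DP stood against 11.3 and 7.03 CPM in PP and 183 and 90.6 CPM in N. The bHLH partners Tcf4 and Tcf12 and the corepressor Rcor1 gave the other 8, with contrasts from -0.21 to 0.49. Without PP replicate 3 and N replicate 1, 6 of the 13 were called higher and 3 were beyond both, beside 10.8% and 1.57% over all circRNAs tested.

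Of the Notch list, 4 of 44 tested circRNAs were higher and 0 lower (median contrast 0.05). These were the 2 of Mfng, CiCo_mm9_circ_003686 of the receptor Notch1 (1204 CPM ± 328 in PP, 633 ± 132 in DP and 9.24 ± 8.01 in N, SD, n = 3) and the Notch2 circRNA above, so that the mean of the modifier was highest in DP and those of the receptors in PP. The list of the Wnt, Shh and Fgf pathways had 4 higher of 80 and 0 lower (median contrast 0.09), namely Celsr1, a cadherin of planar polarity, 2 of Gli2 and 1 of Gli3, transcription factors of Shh signalling. CiCo_mm9_circ_000017 of Gli2 averaged 86.3 CPM ± 28.1 in PP, 125 ± 16.9 in DP and 13.3 ± 17.6 in N, whereas CiCo_mm9_circ_001571 of Gli3 averaged 839 ± 138, 437 ± 67.2 and 52.2 ± 21.9. Chromatin regulators had 6 higher of 255 and 0 lower (median contrast 0.09), of which 5 were overlapping circRNAs of Chd7 and 1 of Hells. RNA-binding proteins had 4 higher of 98 and 0 lower (median contrast -0.04), the circRNAs of Elavl4, Elavl2 and Eif2c1. For the last 4 lists the share called lay between 2.35% and 9.09%, beside 4.28% over all tested circRNAs.

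In the lists of the neighbouring cell types, the median DP level lay below PP and above N for radial glia and above PP and below N for neurons. The radial glia list had 10 higher and 2 lower of 52 (median contrast 0.10), with a median log2 FC of -0.62 against PP and 1.66 against N. The neuron list had 4 higher and 5 lower of 90 (median contrast -0.12), with 0.63 against PP and -1.04 against N. Over all tested circRNAs 3.78% were higher and 0.501% lower, and the median log2 FC was -0.05 against PP and 0.02 against N. The summed level of the neuron list was 11213 to 12590 CPM in PP, 18139 to 22461 in DP and 46805 to 51177 in N, and that of the radial glia list 38413 to 43452, 34270 to 41602 and 32780 to 55221, where the 3 cell types overlapped. Of other cell types, no circRNA of the endothelial, mural or microglia lists was in the table. Erbb4, the only gene of 13 in the interneuron list with circRNAs, summed to 0 to 7.24 CPM in DP, 0 to 67.7 CPM in PP, with 67.7 CPM from 5 counts in PP replicate 3, and 99.7 to 195 CPM in N. Reln of Cajal-Retzius cells had 3.62 to 7.20 CPM in DP, 0 to 4.71 CPM in PP and 152 to 185 CPM in N. Tfrc of the erythroid list had 54.0 to 69.5 CPM in DP, 67.7 to 113 in PP and 28.5 to 50.6 in N, and Bcas1 of the oligodendrocyte precursor list 0 to 6.62 CPM in DP and no count elsewhere. Whether such cells in the N gate have a part in the differences between DP and N was not tested.

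**Figure D5:**
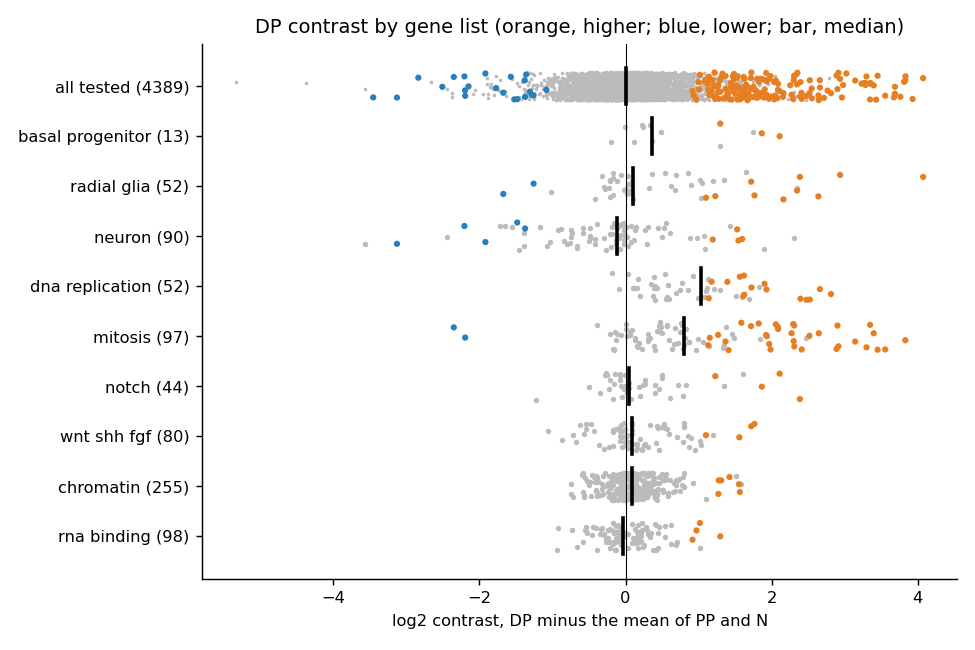
Log2 contrast of DP against the mean of PP and N (horizontal axis) for each tested circRNA of all genes and of each list with at least 10 tested circRNAs, whose number stands in brackets, with higher calls in orange, lower calls in blue and the median as a black bar. The medians of DNA replication (1.03) and mitosis (0.80) lie farthest from 0, and the basal progenitor list has 3 orange points.

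Without PP replicate 3 and N replicate 1, 74 circRNAs of 48 genes were beyond both (1.57%), 59 higher and 15 lower, among them the 6 above. The genes named here were chosen after their values were seen. Rmst, a long noncoding RNA gene of neurogenesis, gave 7 of the 59, which overlap on the minus strand of chromosome 10. CiCo_mm9_circ_000718 of Rmst had 592, 832 and 629.8 CPM in DP and between 175 and 253 CPM in N, but in PP 129 and 212 CPM stood beside 839.5 CPM in PP replicate 3. With that library and N replicate 1 left out its contrast was 1.84 (standard error 0.18, adjusted p = 2.11e-09), and with all libraries 1.27 (adjusted p = 0.133, edgeR's quasi-likelihood test). Other genes of the 59 were Nfatc2 and Prox1, both transcription factors, and Lrp8, a reelin receptor. CiCo_mm9_circ_000239 of Prox1 had 22.7, 42.4 and 108 CPM in PP, 116, 129.6 and 116 CPM in DP and 12.6, 37.1 and 4.75 CPM in N. Among the 15 lower, CiCo_mm9_circ_005387 of the receptor phosphatase Ptprz1 had 2458, 2656 and 1720 CPM in PP, 698, 979 and 547 CPM in DP and 859, 1846 and 1405 CPM in N.

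Across the circRNAs that differed between N and PP, DP lay nearer to PP. On the scale of log2 (CPM + 10), where 0 is the PP mean and 1 the N mean, the median position of DP was 0.357 for the 628 circRNAs higher in N, with 0.364, 0.281 and 0.442 in the 3 DP libraries, and 0.225 for the 657 lower in N, with 0.227, 0.174 and 0.247. The order of the 2 sets depended on the scale, since in CPM the positions were 0.164 and 0.422. The libraries of DP were as rich in circRNAs as those of PP. The effective number of circRNAs, the exponential of the Shannon entropy of counts thinned to 83572 per library, was 2418, 2329 and 2230.2 in DP, 2362, 2299 and 2001 in PP and 1423, 2353 and 2120.4 in N. Its mean in DP was 233 above that of the other 6 libraries, a difference within their spread (2326 ± 93.8, n = 3, against 2093 ± 358, n = 6, exact permutation test, two-sided, p = 0.310, smallest possible p = 0.0238), and without N replicate 1 the difference was 98.7.

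The median counted length of the called circRNAs was 593 bases for the higher and 628 bases for the lower, beside 528 bases over all tested, and the median number of annotated exons was 3 in each of these sets. Their median genomic span was 4561.5 and 6309 bases, beside 6069 bases, and none of these differences was tested. Both ends lay at annotated exon ends for all 188, beside 98.4% of all tested circRNAs. Of the 118 genes with a called circRNA, 63 had 2 or more tested circRNAs, and in each of the 63 all tested circRNAs had a contrast of the same sign. Of the 196 circRNAs tested in the 63 genes, 133 were the called ones by which the genes were picked. The share of genes with a common sign over all tested genes was not computed, so this count has no background. CircRNAs of a gene may share reads and are not independent. In 27 of these genes all tested circRNAs were called.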

How the data were processed

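Total RNA of sorted PP, DP and N was treated with RNase R, and strand-specific single-end libraries were made without mRNA enrichment. The authors aligned the reads with gsnap to mm9, predicted circRNAs from unmapped reads with find_circ and deposited raw counts per circRNA, summed by featureCounts (Subread 1.6.0 in the submitters' processing notes) over features above an RPKM threshold and not normalized. How reads that overlap several circRNAs were assigned is not given in the sources used here. The table deposited by the authors also gives the counted length in bases.

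Of 5281 entries 27 were left out before scaling. The other 5254, among which 13 share coordinates with another entry, were filtered with filterByExpr, which left 4389, scaled by TMM and fitted in 1 model of the 3 cell types (R 4.3.3). Tests were those of edgeR 4.0.16 by quasi-likelihood, adjusted after Benjamini-Hochberg over every circRNA tested, at a threshold of 0.05. The contrast was DP minus the mean of PP and N on the log2 scale. Beyond both means that the tests against PP and N each had an adjusted p under 0.05 with the same sign. CPM refer to tested circRNAs. Counts from 83572 to 287983 per library set the precision, and floors of 3 counts cover counting error only. DESeq2 1.42.0 and limma 3.58.1 served as alternatives, beside other scalings, filters, a replicate block, libraries left out and a pooled reference. Gene names and exons came from GENCODE vM1 (mm9), which is not the annotation the authors used. The fit was also run on simulated counts with a common spread for all cell types and equal levels in PP and N. That setting differs from these data, so it cannot show how the tests behave with unequal spread.

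The labels call libraries replicates and the study calls them biological, but no label gives the animals, so that p-values measure the spread between these samples. The circRNAs, gene lists and tests were chosen with earlier results of these data known. Named circRNAs were, in each direction, up to 10 called ones from different genes with the largest contrast among those whose DP libraries did not overlap the others and whose mean log2 CPM was at or above the median (filled by smallest p below it), the 3 with the largest contrast among those with DP between PP and N, all called ones of the basal progenitor list and up to 4 per other list. The circRNAs beyond both, and those named without PP replicate 3 and N replicate 1, were taken up after their values were seen. Python 3.11.15, numpy 2.4.6, scipy 1.17.1, pandas 2.3.3 and matplotlib 3.10.9 were used.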

Additional observations from a re-analysis of the deposited data

How the results depend on the processing

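The number called in the contrast (188, of which 88.3% were higher) stayed within 1.5 times under DESeq2, RLE, total counts, no filter, the kept entries and the replicate block, between 126 and 206. It was 86 with limma-trend, 15 with at least 10 counts in every library, 679 without PP replicate 3 and N replicate 1 (74.5% higher), 2 with PP and N as a single group (100% higher), 118 as parental genes, and 55 to 282 with a library left out (85.3% to 98.4% higher). The filter of 10 counts removes circRNAs absent from N and any other below 10 in a single library. The median count was 7 in PP replicate 3 and 6 in N replicate 1. The 6 circRNAs beyond both became 2 with at least 10 counts in every library, 74 without PP replicate 3 and N replicate 1, and 2 to 16 with a library left out. With at least 10 counts in every library the 2 were those of Elavl4 and Schip1. The Kif26b rings, with 7 counts each over the PP libraries, were not tested there. With the replicate block 126 were called in the contrast and 3 were beyond both, the 2 of Kif26b and that of Mfng. Libraries of different cell types were also correlated after the mean of the cell type was subtracted from the log2 CPM of each circRNA. These correlations of what remained averaged -0.033 between libraries that share a replicate number and 0.024 between libraries with unlike numbers. Single pairs with a shared number ranged from -0.235 (PP 1 with N 1) to 0.282 (PP 2 with N 2). With 3 libraries per cell type, such values cannot decide whether a number marks samples from the same animals, and the labels do not say. In CPM the positions of DP were 0.164 and 0.422, beside 0.357 and 0.225 on the scale of log2 (CPM + 10). On the latter scale they were 0.414 and 0.278 without PP replicate 3 and N replicate 1, over the 1040 and 971 circRNAs then called. Of the contrasts of named circRNAs recomputed under these alternatives, 322 kept their side of the threshold, 99 lost it and none changed sign. These fits reuse the libraries by which the circRNAs were selected. The cause of these shifts was not tested. Depth limits circRNAs of a few counts, above all in PP replicate 3 and N replicate 1.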
